A study of Mus musculus with 24 samples.

Results

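The 8 genes described here encode the mRNAs that iron regulatory proteins bind and those proteins themselves. They are the ferritin heavy and light chains (Fth1, Ftl1), the iron exporter ferroportin (Slc40a1), the hypoxia-inducible factor HIF-2α (Epas1), the transferrin receptor (Tfrc), the divalent metal transporter DMT1 (Slc11a2) and the iron regulatory proteins IRP1 (Aco1) and IRP2 (Ireb2). They were taken by name from 23845 genes with RNA values and 20436 with values for ribosome-protected fragments (RPFs, or footprints). All 8 were tested for RNA among 14516 genes. Ftl1, Epas1, Tfrc, Slc11a2, Aco1 and Ireb2 were tested for RPFs among 12877 genes and for RPFs per RNA (translational efficiency, TE) among 12785. RPFs of Fth1 were not analysed here, and Slc40a1, with 2 to 11 RPF counts per library, did not pass the count filter.

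Hippocampal slices came from male mice 28 to 42 days old, either wild type (WT) or littermates with one disrupted copy of Tsc2 in all cells (Tsc2+/-). The gene encodes a brake on the growth kinase mTORC1. Slices received vehicle (artificial cerebrospinal fluid) or, to activate group I metabotropic glutamate receptors, 100 µM of the agonist DHPG for 5 min, and all of them were then placed in cycloheximide at 100 µg/ml. The study cut CA3 away, describes these slices as enriched for CA1, and pooled those of several mice for each lysate. An RNA and an RPF library were made from each lysate. That gave 4 groups of 3 RNA libraries (WT vehicle, WT DHPG, Tsc2+/- vehicle, Tsc2+/- DHPG) and 4 matching groups of 3 RPF libraries.

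Iron regulatory proteins bind a short hairpin in mRNA, the iron-responsive element, when cellular iron is low. Bound in the 5′ untranslated region (UTR), as in the ferritins, ferroportin and HIF-2α, they block the loading of ribosomes. Bound in the 3′ UTR, as in the transferrin receptor, they protect the mRNA from decay. IRP1 is a cytosolic aconitase when it carries an iron-sulphur cluster, whereas IRP2 is degraded when iron is plentiful.

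The elements were located in the mRNAs first, because their position divides the 8 genes. RefSeq transcripts on GRCm38.p6, the build also called mm10, were searched on the sense strand for a C, 5 bases, the loop CAGTGN and 5 bases that pair with the former 5, with G-T allowed as a pair. Each element is written 5′ to 3′, with the unpaired C and the loop in capitals.

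Fth1, 5′ UTR: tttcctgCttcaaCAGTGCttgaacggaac

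Ftl1, 5′ UTR: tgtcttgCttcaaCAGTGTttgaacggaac

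Slc40a1, 5′ UTR: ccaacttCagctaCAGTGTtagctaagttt

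Tfrc, 3′ UTR, element 1: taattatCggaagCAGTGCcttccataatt

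Tfrc, 3′ UTR, element 2: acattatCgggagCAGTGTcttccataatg

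Tfrc, 3′ UTR, element 3: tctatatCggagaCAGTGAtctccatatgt

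Tfrc, 3′ UTR, element 4: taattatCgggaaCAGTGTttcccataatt

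Slc11a2, 3′ UTR: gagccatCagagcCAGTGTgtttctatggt

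The ferritin elements were nearly alike, with 27 of 30 bases identical. The Fth1 element lay at chr19:9982731-9982760 on the plus strand, with its unpaired C at base 93 of a 5′ UTR of 224 bases. The Ftl1 element lay at chr7:45459779-45459808 on the minus strand, at base 86 of 255. The Slc40a1 element lay at chr1:45925465-45925494 on the minus strand, at base 108 of 331, and shared 13 of 30 bases with that of Fth1.

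Tfrc held 4 elements on the plus strand of chromosome 16, at chr16:32631218-32631247, chr16:32631597-32631626, chr16:32631662-32631691 and chr16:32631709-32631738. Between 18 and 25 of their 30 bases were identical from one to another. The single Slc11a2 match, at chr15:100395153-100395182 on the minus strand, formed only 4 of the 5 pairs and lay at base 38 of a 3′ UTR of 2555 bases.

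These letters were not found in the UTRs of Epas1, Aco1 or Ireb2. Epas1 is grouped with the 5′ elements below from general knowledge, not from this search. A match with 5 pairs occurred in the 5′ UTR of 21 of 21000 annotated genes (0.1%) and in the 3′ UTR of 106 (0.505%). With 4 pairs the shares were 0.719% and 3.4%. On the opposite strand, 5 pairs occurred in 0.0905% of 5′ UTRs and 0.376% of 3′ UTRs.

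**Figure D1:**
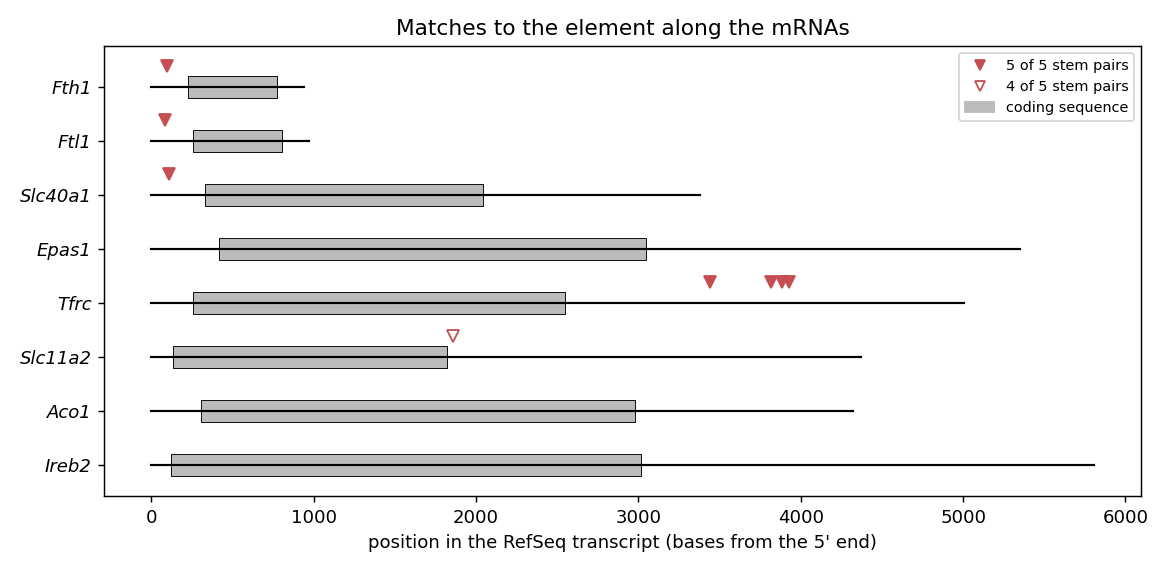
Each line is a RefSeq mRNA drawn to scale in bases from its 5′ end, with the coding sequence as a grey box and matches to the element as triangles (filled, 5 of 5 stem pairs; open, 4 of 5). The matches of Fth1, Ftl1 and Slc40a1 precede the coding sequence, and those of Tfrc and Slc11a2 follow it.

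RNA libraries held 14801679 to 24067838 counts and RPF libraries 5296006 to 13613673. Tsc2 RNA, the check of the genotype labels, was at 186 to 214 CPM (counts scaled by library size) in WT and 128 to 137 CPM in Tsc2+/- libraries. The dentate gyrus markers Prox1, C1ql2 and Dsp summed to 24.1 to 40.4 CPM of RNA in WT libraries and 16.4 to 25.7 CPM in Tsc2+/- libraries, and 3 haemoglobin genes to 15.7 to 34.7 CPM and 2.50 to 17.2 CPM. The hippocampal CA1 markers Wfs1, Fibcd1 and Pou3f1 were at 1054 to 1107 CPM and 1048 to 1178 CPM in the same order.

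The listed mRNAs spanned a wide range of abundance. Per kilobase of the longest annotated transcript in WT vehicle slices, Fth1 was the highest of 13288 genes with a length. It was at 2091 CPM per kb, which was 294 times the median gene. With the shortest annotated transcripts, Fth1 was at the 99.99th percentile and 270 times the median. Ftl1, at 299 CPM per kb, ranked at the 99.1st percentile, and Epas1, at 69.6 CPM per kb, at the 93.2nd. Tfrc (18.5 CPM per kb, 73.6th percentile), Slc11a2 (12.8, 64.8th), Ireb2 (7.27, 50.5th) and Aco1 (5.79, 45.6th) were nearer the median of 7.11. Slc40a1 was low, at 1.11 CPM per kb (17.9th percentile).

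Per kilobase of coding sequence, Tfrc had 139.6 CPM per kb of RPFs (89.99th percentile of 12030 genes). Ftl1 had 55.7, but 559 when the same counts were divided by only the sequence found nowhere else in the genome. Its place above or below Tfrc depended on this choice of length. Slc11a2 had 30.7 with its longest coding sequence and 60.6 with its shortest. Ireb2 had 21.6 and Aco1 19.9. Epas1, whose RNA per kb was 3.75 times that of Tfrc, had the lowest RPF level of the 6 tested genes at 14.8 CPM per kb, at the 47.0th percentile.

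RPFs per RNA, each per kilobase, placed Ftl1 and Epas1 far from Tfrc. The median of 11987 genes was 2.25 in WT vehicle slices, with the 5th percentile at 0.557 and the 95th at 7.51. Epas1 was at 0.213, with 53 genes lower, which was 10.6 times below the median gene. Ftl1 was at 0.186, with 31 genes lower, over its full length. With the same counts divided by only the sequence found nowhere else, Ftl1 was at 0.565. Of the ranked genes, kept at full length, 5.17% were lower than that. Tfrc was at 7.53, or 3.34 times the median, with 594 genes higher.

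The remaining genes lay near the middle of all genes. Slc11a2 was at 2.39 (52.9th percentile), Ireb2 at 2.97 (64.2nd) and Aco1 at 3.44 (71.5th). With the shortest annotated transcript and coding sequence in place of the longest, Slc11a2 moved to 3.26 and Tfrc to 7.39, whereas Ftl1, Epas1, Aco1 and Ireb2, with a single annotated transcript each, kept their values.

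Over full lengths, the position of Ftl1 and Epas1 was seen in every lysate. Over the 12 lysates, RPFs per RNA per kb of Ftl1 ran from 0.151 to 0.236, with a median of 0.186, and its percentile from 0.234 to 1.03. Those of Epas1 ran from 0.151 to 0.253, with a median of 0.183, and its percentile from 0.2503 to 1.37. Tfrc ran from 6.09 to 8.74, between the 92.0th and the 96.1st percentile. No lysate placed Slc11a2, Aco1 or Ireb2 below the 48.0th percentile.

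**Figure D2:**
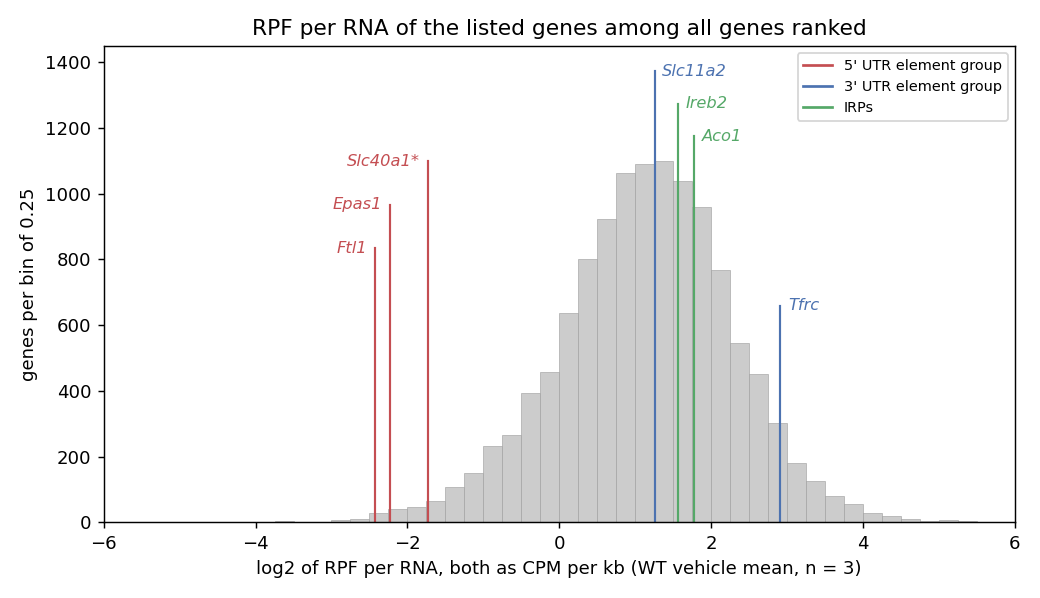
Grey bars count genes by the log2 of RPFs per RNA, both in CPM per kb, as the mean of the 3 WT vehicle lysates, and coloured lines mark the listed genes. Ftl1 (0.186 over its full length) and Epas1 (0.213) lie in the far lower tail and Tfrc (7.53) in the upper tail. The asterisk marks Slc40a1, which is not among the genes counted in the bars. It rests on 12 RPF counts as deposited, or 8 with those of replicates 2 and 3 halved.

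Slc40a1 could be placed only roughly. Its RPF counts were 4, 6 and 2 in WT vehicle, 7, 8 and 6 in WT DHPG, 11, 4 and 6 in Tsc2+/- vehicle and 6, 4 and 4 in Tsc2+/- DHPG. All counts of replicates 2 and 3 were even, as nearly all RPF counts of those replicates were, so they were halved for the counting intervals. WT vehicle gave 0.302 RPFs per RNA per kb, with an exact Poisson 95% interval of 0.130 to 0.594 from 8 counts that covers counting error only. All 12 lysates gave 0.421 (0.310 to 0.558, from 48 counts), and 2.59% of the ranked genes were lower in WT vehicle slices than that value. Counted over full lengths, Ftl1, Epas1 and Slc40a1, the genes of the 5′ group with RPFs here, all lay at the low end of the ranking, as a description without a test.

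Reads shared with other loci bear on the ferritins. Of the 30-base windows in the counted coding sequence of Ftl1, 414 of 463 (89.4%) occurred exactly elsewhere in the genome, and so did 603 of 896 (67.3%) of its 75-base transcript windows. Since only uniquely mapped reads had been kept, both levels of Ftl1 are uncertain, and RPFs the more so. All counts of Ftl1 were also divided by only its 49 RPF and 293 RNA windows found nowhere else. RPFs per RNA per kb of Ftl1 were then 0.251 of the median gene. This takes every counted read to lie in those windows, and the other genes kept their full lengths. For Fth1 the shares were 24.1% of coding and 3.80% of transcript windows. No window of Epas1, Slc40a1, Tfrc, Slc11a2, Aco1 or Ireb2 occurred elsewhere, so the low value of Epas1 was measured on sequence unique to it.

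**Figure D3:**
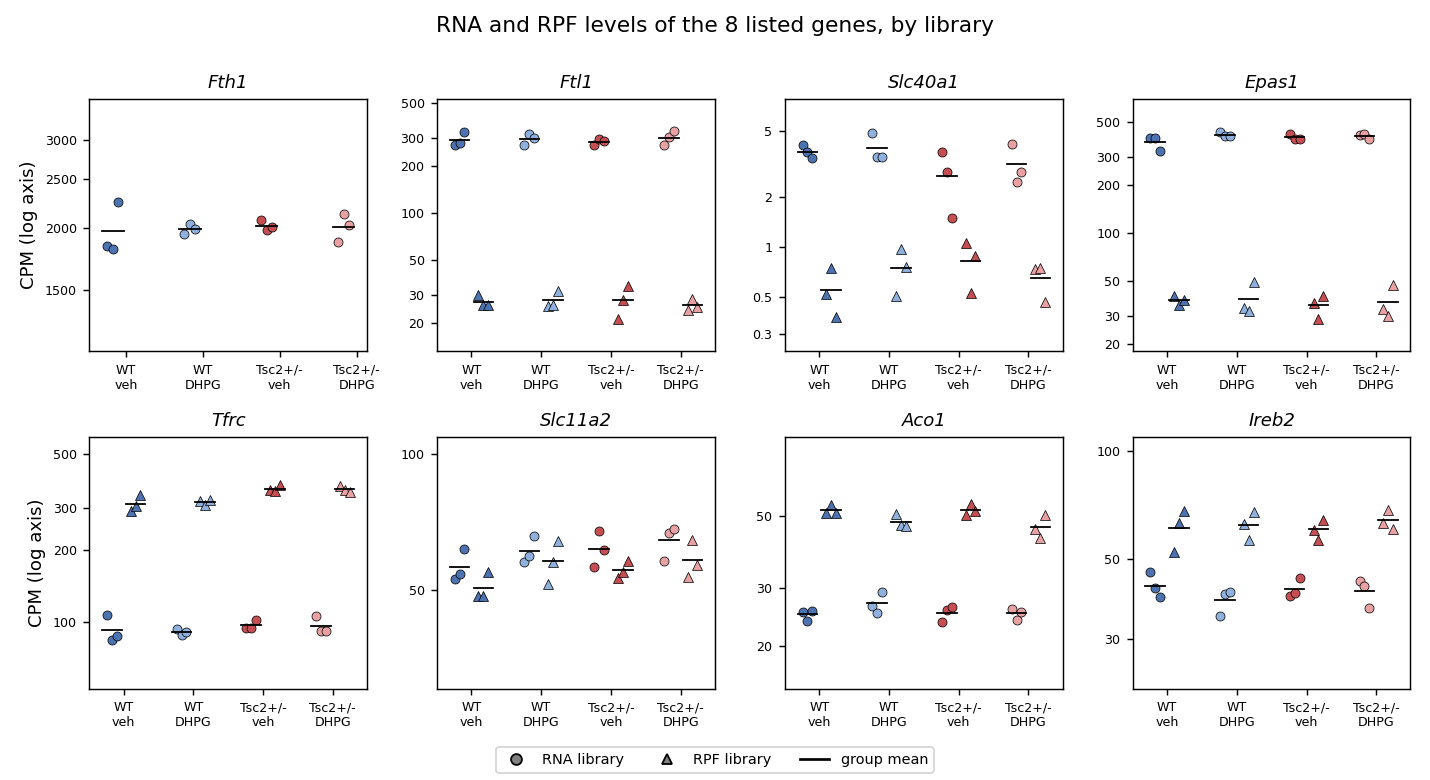
CPM on log axes of the 8 genes in each RNA (circles) and RPF (triangles) library of the 4 groups, with bars for the group means of 3 libraries. Fth1 has RNA values alone. RPFs lie far below RNA for Ftl1, Slc40a1 and Epas1, close to RNA for Slc11a2, and above it for Tfrc, Aco1 and Ireb2, in all 4 groups.

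The same counts are given here by library without a length, with RNA counted over transcripts and RPFs over coding sequences. They are no separate evidence on the ranking, and for Ftl1 they carry the uncertainty from shared reads. Epas1 RNA was at 394, 395 and 328 CPM in WT vehicle, against 40.4, 35.4 and 38.04 CPM of RPFs in the same lysates. In Tsc2+/- vehicle its RNA was at 420.2, 391 and 387 CPM and its RPFs at 36.1, 28.9 and 40.4 CPM. Neither group of libraries stood apart from the other. Ftl1 RNA was at 269, 276 and 325 CPM in WT vehicle and 269, 295 and 288 CPM in Tsc2+/- vehicle. Its RPFs were at 30.2, 26.1 and 25.9 CPM and at 21.2, 28.1 and 34.5 CPM, again with overlap.

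The effect of genotype was tested next, in vehicle, in DHPG and averaged over treatments, with the quasi-likelihood F test of edgeR and adjustment over all genes tested. RNA and RPF libraries of a lysate share their source, so that the 3 readouts are not independent. A gene was called at an adjusted p under 0.1. One listed gene was called in RPFs with genotype averaged over treatments, where 0.0544% of all genes were called, and it was Tfrc. In bulk slices, fewer cells of a type and less RNA per cell cannot be told apart.

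Tfrc encodes the receptor that brings transferrin-bound iron into cells. Its RPFs were higher in Tsc2+/- slices. They were at 289.9, 305 and 340.1 CPM in WT vehicle and 357, 352 and 371 CPM in Tsc2+/- vehicle. After DHPG they were at 318, 309 and 324 CPM in WT and 369, 357 and 349 CPM in Tsc2+/-. All 6 Tsc2+/- values lay above all 6 WT values. Only Tfrc among the 6 listed genes tested did so, as did 0.171% of all genes.

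The averaged difference of Tfrc was 0.19 on the log2 scale (SE 0.0406, 95% interval 0.11 to 0.28, edgeR adjusted p = 0.0708), a fold of 1.14, and RPFs were higher in 6 of 6 same-numbered pairs. Within vehicle the log2 difference was 0.21 (SE 0.0577, adjusted p = 0.443) and within DHPG 0.18 (SE 0.0571, adjusted p = 0.9997), each higher in 3 of 3 pairs and neither past the threshold. The difference between these effects was -0.04 (95% interval -0.20 to 0.13).

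Tfrc RNA showed no separation of this kind. It was at 107, 84.2 and 87.3 CPM in WT vehicle and 94.0, 94.0 and 102 CPM in Tsc2+/- vehicle. After DHPG it was at 93.7, 87.9 and 90.3 CPM in WT and 106, 92.0 and 91.6 CPM in Tsc2+/-. The averaged log2 difference was 0.08 (95% interval -0.02 to 0.17, adjusted p = 0.836), and that of TE 0.12 (-0.01 to 0.24, adjusted p = 0.999). Neither passed the threshold, and whether the RPF difference lay in RNA or in TE was not resolved.

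The Tfrc call rested on a narrow margin. It was lost without the replicate number in the model (adjusted p = 0.375), without replicate 1 (0.433) or without replicate 2 (0.932), and in 9 of 12 fits that left out 1 RPF library, those of WT vehicle replicate 2, every WT DHPG library, every Tsc2+/- vehicle library, and Tsc2+/- DHPG replicates 1 and 2. The log2 difference kept its direction in all 23 other fits, from 0.17 to 0.23. The lower dentate gyrus and haemoglobin RNA of Tsc2+/- libraries moved with genotype as Tfrc RPFs did, in the opposite direction, and so did dentate gyrus RPFs, which summed to 23.97 to 46.8 CPM in WT and 16.99 to 28.9 CPM in Tsc2+/- libraries. Their part in the difference was not tested.

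**Figure D4:**
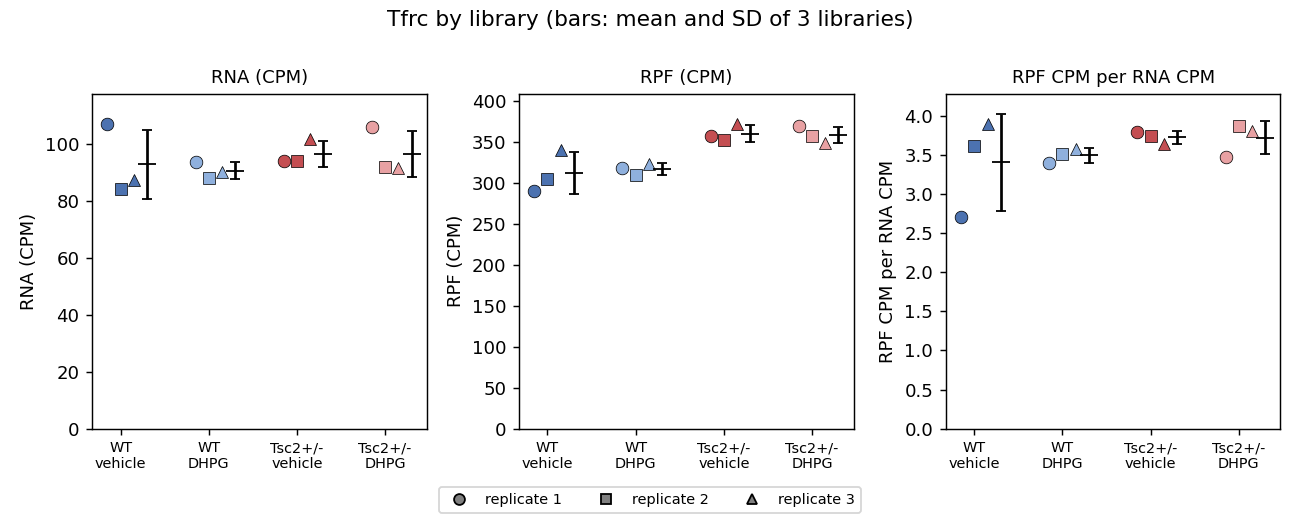
Tfrc RNA in CPM, RPFs in CPM and RPF CPM per RNA CPM in each lysate of the 4 groups, with symbols for the replicate number and bars for the mean and SD of 3 libraries. In the middle panel the Tsc2+/- values (349 to 371 CPM) lie above the WT values (289.9 to 340.1 CPM), which is not so for RNA or for the ratio.

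Slc40a1 RNA had the largest difference by genotype among the listed genes, but was not called. It was at 4.10, 3.71 and 3.45 CPM in WT vehicle, from 61 to 90 counts, and 3.71, 2.82 and 1.49 CPM in Tsc2+/- vehicle, from 33 to 75 counts. After DHPG it was at 4.83, 3.49 and 3.46 CPM in WT and 4.19, 2.45 and 2.84 CPM in Tsc2+/-. WT and Tsc2+/- values overlapped. The averaged log2 difference was -0.42 (SE 0.161, adjusted p = 0.650), lower in 6 of 6 pairs.

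Ferroportin is made in several cell types that a slice can hold, including endothelial cells and cells of the blood lineage. The haemoglobin sum given above was lower as well, and 6 endothelial markers summed to 90.1 to 102 CPM in WT and 67.8 to 96.8 CPM in Tsc2+/- RNA libraries. In the same order, microglia markers summed to 231 to 304 CPM and 259 to 290 CPM. Astrocyte markers summed to 1727 to 1983 CPM and 1862 to 2057 CPM, and oligodendrocyte markers to 4981 to 6159 CPM and 5457 to 6403 CPM. The part of these cell types in the Slc40a1 difference was not tested.

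None of the other listed genes was called by genotype in any readout. Of 8 tested in RNA, 0 were called by edgeR in vehicle (0.0964% of all genes called), 0 in DHPG (0.0482%) and 0 averaged over treatments (0.248%), and 1, 0 and 2 had an unadjusted p under 0.05. Those were Slc40a1 in vehicle, and Slc40a1 and Slc11a2 averaged. Of all genes, 4.95%, 4.73% and 6.28% had such a p in RNA, and 6.71% and 4.25% in RPFs in vehicle and in DHPG. In RPFs, 0 of 6 were called in vehicle (0.0233%) and 0 in DHPG (0.0155%), with Tfrc alone at an unadjusted p under 0.05 in each. In TE, 0 of 6 were called in vehicle, in DHPG or averaged, where 0% of all genes were called, and 0 had an unadjusted p under 0.05. Such a p was found for 5.15%, 2.70% and 4.08% of all genes in TE. DESeq2 called only Tfrc RPFs, averaged over treatments, in these 9 comparisons.

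Fth1 RNA was at 1838, 1815 and 2257 CPM in WT vehicle and 2073, 1978 and 2006 CPM in Tsc2+/- vehicle, with the Tsc2+/- values inside the WT range. The averaged log2 difference of Fth1 RNA was 0.03 (95% interval -0.06 to 0.12) and that of Ftl1 RNA -0.00 (-0.08 to 0.08). For Ftl1 RPFs, with 136 to 352 counts per library, it was -0.07 (-0.26 to 0.12). Slc11a2 RNA was at 52.8 to 65.6 CPM in WT and 56.1 to 68.3 CPM in Tsc2+/- libraries (log2 difference 0.11, SE 0.0494, adjusted p = 0.762).

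Epas1 gave -0.09 (-0.25 to 0.07) for RPFs and -0.13 (-0.29 to 0.04) for TE. The IRPs were close to 0, with averaged log2 differences in RNA of -0.04 for Aco1 (-0.17 to 0.09) and 0.03 for Ireb2 (-0.10 to 0.15). Their RPF differences were -0.03 (-0.16 to 0.11) and 0.01 (-0.12 to 0.15). The median over the 8 genes in RNA was 0.03, against -0.00 over all genes tested.

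The response to DHPG was tested in the same way, in WT, in Tsc2+/- and averaged over genotypes. No listed gene was called in RNA (0%, 0% and 0.0207% of all genes called), in RPFs (0.0311%, 0% and 0.0311%) or in TE (0.0548%, 0% and 0.0469%). By edgeR, the listed genes with an unadjusted p under 0.05 numbered 1, 0 and 1 in RNA, 1, 0 and 1 in RPFs and 0, 0 and 1 in TE. Of all genes, 6.07%, 4.86% and 7.61% had such a p in RNA. The shares were 7.07%, 3.87% and 6.96% in RPFs and 8.64%, 3.32% and 8.05% in TE. DESeq2 called 0 of the listed genes. The interaction of genotype and DHPG called 0% of all genes in each readout and none of the listed, of which 0 had an unadjusted p under 0.05. Among all genes, 3.51%, 3.84% and 3.77% had such a p in RNA, RPFs and TE.

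Aco1 RPFs were lower after DHPG in each same-numbered pair. They were at 50.8, 53.95 and 51.0 CPM in WT vehicle and 50.4, 46.7 and 46.4 CPM in WT DHPG. In Tsc2+/- they were at 50.3, 54.4 and 51.6 CPM with vehicle and 45.5, 42.6 and 50.04 CPM with DHPG. Vehicle and DHPG values overlapped slightly. The averaged log2 difference was -0.14 in RPFs (SE 0.0647, adjusted p = 0.694) and -0.20 in TE (SE 0.0877, adjusted p = 0.574), each lower in 6 of 6 pairs and neither called.

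RPF CPM per RNA CPM of Aco1 ran from 1.96 to 2.25 with vehicle and from 1.58 to 1.96 with DHPG. Aco1 RNA differed by 0.06 (95% interval -0.07 to 0.19). For Ireb2, the other IRP, the averaged differences by DHPG were -0.07 in RNA (-0.19 to 0.05), 0.06 in RPFs (-0.08 to 0.19) and 0.13 in TE (-0.06 to 0.31).

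Epas1 RNA was at 432, 407 and 404 CPM in WT DHPG, at 394, 395 and 328 CPM in WT vehicle, and at 412, 418 and 389 CPM in Tsc2+/- DHPG. The log2 difference in WT was 0.16 (SE 0.0515, adjusted p = 0.800) and the average 0.09 (SE 0.0362, adjusted p = 0.571). Epas1 RPFs were at 33.9, 32.5 and 48.9 CPM in WT DHPG and 33.3, 30.3 and 46.7 CPM in Tsc2+/- DHPG, which spread over the vehicle values. In each group replicate 3 had the highest RPFs per RNA of Epas1, at 0.104 to 0.121 RPF CPM per RNA CPM against 0.0725 to 0.103 in replicates 1 and 2.

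Slc11a2 RPFs were at 48.3, 48.4 and 54.8 CPM in WT vehicle and 51.5, 57.7 and 64.1 CPM in WT DHPG, which overlapped (log2 difference 0.19, SE 0.0896, adjusted p = 0.689). Tfrc was flat, with averaged log2 differences by DHPG of -0.01 in RNA (95% interval -0.11 to 0.08) and 0.01 in RPFs (-0.07 to 0.09). Fth1 RNA gave 0.01 (-0.08 to 0.09) and Ftl1 RNA 0.06 (-0.02 to 0.13).

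**Figure D5:**
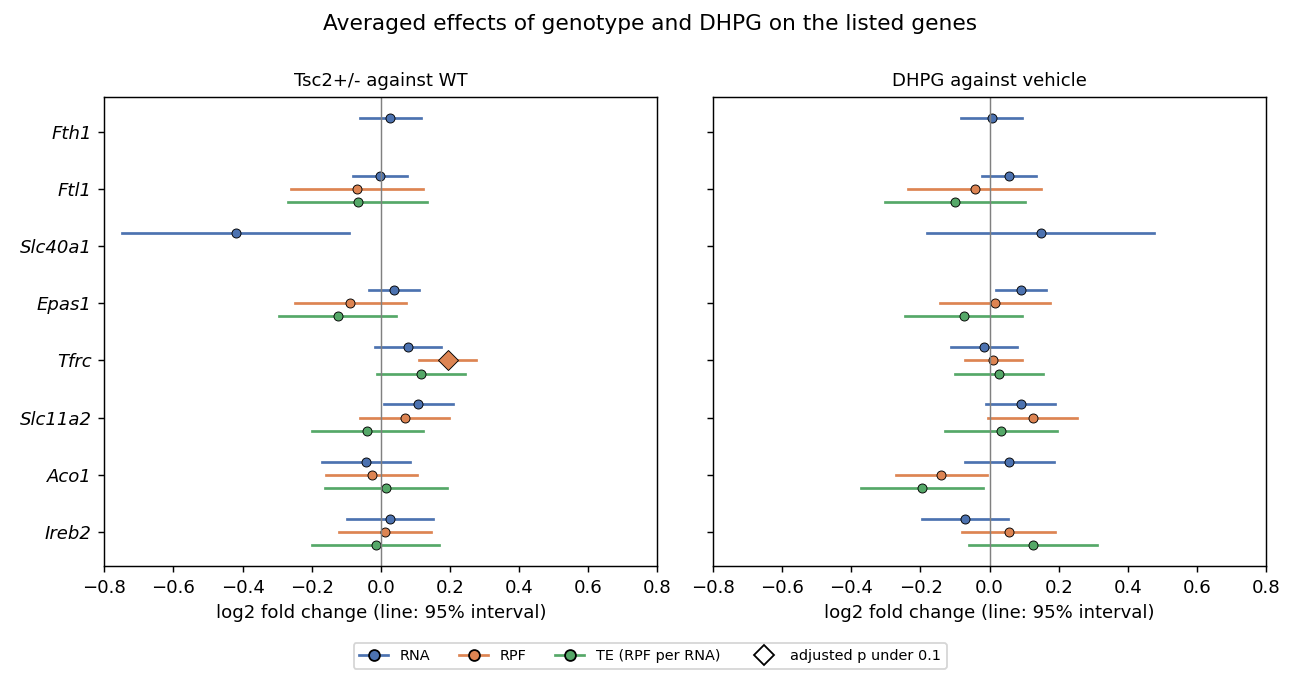
Log2 fold changes of the listed genes for Tsc2+/- against WT averaged over treatments (left) and DHPG against vehicle averaged over genotypes (right) in RNA, RPFs and TE, with 95% intervals as lines. The diamond marks the only call, Tfrc RPFs by genotype (0.19), and the other intervals that leave out 0 belong to Slc40a1 and Slc11a2 RNA on the left and to Epas1 RNA and Aco1 RPFs and TE on the right.

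Of 59 other genes of iron handling and oxygen sensing, 54 were tested in RNA, 52 in RPFs and 52 in TE. None was called in any of the 21 comparisons. Among other mRNAs known to carry an iron-responsive element or one like it, Alas2, which starts haem synthesis in red cell precursors, had 0 to 13 RNA counts per library and a log2 difference by genotype of -0.88 (SE 0.488, adjusted p = 0.827), in the same direction as the haemoglobin genes. Pfn2, an actin-binding profilin, had a TE difference by DHPG of 0.18 (SE 0.0504, adjusted p = 0.300), higher in 6 of 6 pairs.

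Low RPFs per RNA were not general among these genes. Pfn2 was at 4.09 RPFs per RNA per kb (79.4th percentile) and Cdc42bpa, a kinase, at 0.471 (3.31st). They were the highest and the lowest of the 4 genes ranked on the list of other mRNAs with such an element. The median percentile of that list was 40.1. The lists of iron uptake, storage and export (19 genes ranked) and of haem and iron-sulphur cluster genes (14 ranked) had median percentiles of 61.5 and 51.7. Their genes ran from the 3.21st to the 91.9th percentile and from the 23.4th to the 99.7th. Values as low as that of Cdc42bpa were thus also found in the list of iron uptake, storage and export.

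The oxygen sensing list, 9 genes ranked, had a median percentile of 39.9, and its lowest members were the prolyl hydroxylases Egln2 (0.352, 1.69th percentile) and Egln1 (0.488, 3.62nd). These enzymes mark HIF proteins, HIF-2α included, for degradation. Egln2 RPFs had a log2 difference by DHPG of -0.50 (SE 0.115, adjusted p = 0.161), lower in 6 of 6 pairs. Arnt2, a partner of HIF proteins, had an RNA difference by genotype of 0.08 (SE 0.0353, adjusted p = 0.756).

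Subunits of the ubiquitin ligase that degrades IRP2 were measured as well. The RNA of Skp1a, at 221 to 279 CPM, had a log2 difference by DHPG of -0.11 (SE 0.0406, adjusted p = 0.546) and that of Cul1 -0.07 (SE 0.0447, adjusted p = 0.739). Rbx1 had -0.14 in RNA (SE 0.0516, adjusted p = 0.546) and 0.27 in TE (SE 0.0762, adjusted p = 0.300). Pcbp2, an iron chaperone that delivers iron to ferritin, had an RPF difference by DHPG of 0.14 (SE 0.0417, adjusted p = 0.333), higher in 6 of 6 pairs.

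Transferrin (Trf) RNA differed by 0.04 by genotype, and Mcoln1, a lysosomal iron channel, had an RPF difference by genotype of 0.17 (SE 0.0572, adjusted p = 0.577). Of the iron-sulphur cluster genes, Isca1 had an RPF difference by DHPG of 0.14 and Lyrm4 a TE difference by DHPG of 0.32 (SE 0.125, adjusted p = 0.523). Fech, which inserts iron into haem, had an RPF difference by genotype of 0.02. The ferritin-like Fthl17 was listed at 0 counts in every library of both assays.

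The genes whose RNA varied most like each listed gene were sought over the 12 RNA libraries, after the mean of each replicate number had been removed. The most alike were Rps26 for Fth1 (Pearson's r = 0.923), Cox7c for Ftl1 (0.908), 1190005I06Rik for Slc40a1 (0.947), Ncan for Epas1 (0.964), Ncam2 for Tfrc (0.943), Syt5 for Slc11a2 (0.920), Hist2h3b for Aco1 (0.943) and Nkain3 for Ireb2 (0.933). These are the highest of 14515 values each and share libraries and depth, so they are given as a description. Among the listed genes themselves, the only values beyond 0.6 in size were 0.713 for Tfrc with Ireb2 and -0.701 for Tfrc with Slc40a1.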

How the data were processed

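RNA-seq (poly(A) selected, per the labels) and ribosome profiling gave 12 libraries each, in 4 groups of 3. The authors removed adapters with cutadapt, discarded rRNA and tRNA reads with Bowtie2, mapped to mm10 with TopHat2, kept unique reads without duplicates and counted with RSEM. As deposited, values were expected counts for each gene in whole numbers, over transcripts for RNA and over coding sequences without 30 bases at each end for RPFs. In RPF libraries of replicates 2 and 3, 97.9% to 98.5% of counts were even, against 48.2% to 49.0% in replicate 1. CPM are counts scaled by library size and TMM.

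Genes passed filterByExpr at a minimum count of 10 and were tested with the quasi-likelihood F test of edgeR 4.0.16 in R 4.3.3 (two-sided, Benjamini-Hochberg), modelling group and replicate number. TE was the interaction of assay and group over 24 libraries. SE came from the F statistic. Replicates are separate lysates per the study. Same-numbered libraries of different groups correlated at 0.0228 to 0.143 in RNA and 0.0330 to 0.263 in RPFs (deviations from group means), and the number was kept because the study corrected for batch. Levels per kb used the longest RefSeq lengths of GRCm38.p6, found for 91.5% of RNA and 95.0% of RPF genes tested.

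On simulated data in which the averaged genotype effect was set, 23.8% of RPF changes of 0.2 on the log2 scale were recovered among 12784 genes and 83.8% of those of 0.5. For changes of 0.2 the recovered share was 36.25% in RNA and only 6.25% in TE. The simulation gave every gene the same spread beyond counting error and no replicate effect. It took the RPF totals as deposited, without halving replicates 2 and 3, so recovery in the real libraries may be lower. The genes, lists and element search were chosen with earlier results of these data known. Named from the lists were, in each, the 2 with the most RNA and the 2 with the smallest p in an averaged effect, besides any called, and the listed genes' most alike gene. Cdc42bpa was named after its value was seen, and 2 genes that this rule names are not reported here. Alternatives were DESeq2 1.42.0, ComBat (sva 3.50.0) before DESeq2, other count filters, other scaling, a stricter threshold (0.05), fits of only 2 groups, halved RPF counts of replicates 2 and 3, the lysate as a block, and leaving out replicates or libraries. An older version of the edgeR method and the windows unique to Ftl1 were added after seeing the data. Protein sequences were not used here.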

Additional observations from a re-analysis of the deposited data

How the results depend on the processing

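The 1 call among the listed genes, Tfrc in RPFs by genotype averaged over treatments, depended on the processing. The count was 0 without the replicate block and at an adjusted p under 0.05, and 0 to 1 when a replicate number or library was left out. With the other alternatives it stayed at 1, with adjusted p of 0.0189 (ComBat before DESeq2) to 0.0728 (DESeq2 size factors). When a library was left out, the adjusted p was 0.0105 to 0.555, and with a replicate number left out 0.0173 to 0.932. The cause was not tested. In the other 20 comparisons no alternative called a listed gene. Of 3864 log2 fold changes of listed genes under an alternative, 3502 kept their direction and side of the threshold, 349 uncalled values changed sign, and 13, all of Tfrc RPFs, lost the call. The block changed no other call of a listed gene. Counts over all genes varied more. For genotype in vehicle, in DHPG and averaged, RNA calls were 14, 7 and 36 as reported and 5 to 27, 4 to 15 and 15 to 44 under alternatives, RPF calls 3, 2 and 7 and 2 to 8, 2 to 47 and 3 to 69, and TE calls 0, 0 and 0 and 0 to 3, 0 to 3 and 0 to 9. For DHPG in WT, in Tsc2+/- and averaged, RNA calls were 0, 0 and 3 and 0 to 61, 0 to 2 and 0 to 43, RPF calls 4, 0 and 4 and 1 to 28, 0 to 9 and 0 to 20, and TE calls 7, 0 and 6 and 0 to 203, 0 to 1 and 0 to 35. The interaction had 0 calls and 0 to 2 in each readout. The highest RNA and TE counts for DHPG in WT and averaged came without RNA of WT vehicle replicate 2, and the highest RPF counts for genotype without replicate 3. With 4 of 5 stem pairs, 5 listed genes held the element in place of 4. RPFs per RNA per kb of Ftl1 moved from 0.186 to 0.565 when its counts were divided by only the windows found nowhere else. The value of Slc11a2 moved from 2.39 to 3.26 with the shortest lengths, with RPFs per kb of 30.7 and 60.6. Depth limits Slc40a1, with 2 to 11 RPF counts. With 3 libraries a group, the simulation, which was simpler than the data, recovered 23.8% of RPF changes of 0.2 on the log2 scale. Of TE changes of that size it recovered 6.25%.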
